A study of Mus musculus with 9 samples.

Results

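The ASMM10LNC probes are the largest family of oligonucleotide probes on the array used for this series, and the letters LNC in their names are read here as long noncoding RNA, the class of transcript that the series' title names beside mRNA. Members were all features outside the control class whose name begins with ASMM10LNC, chosen by name alone and not by any measured value. They numbered 27812 of 60823 probes, or 45.7%, and each was printed at 1 spot per array. The comparison family, probes named ASMM10P followed by digits (P probes), held 7912 probes, and the files do not say what those probes target. Every member carries only the maker's identifier, a 9-digit number between a fixed prefix and the suffix V4. The files pair 0 members with a gene, a transcript or a sequence, so members are named below by identifier, and the aortic cell type markers and the well known long noncoding RNAs were not analysed here.

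Aortic RNA of 9 C57BL/6J mice, all male, was hybridized as Cy3-labelled cRNA, with 1 mouse per array and 3 mice per group. Vehicle mice formed the control group, and no diet is named for them. DIO mice ate a high-fat diet for 4 months without sitagliptin. DIO+sitagliptin mice were also fed a high-fat diet, for a time not given, and took sitagliptin orally at 3 mg/kg per day. Sitagliptin inhibits DPP-4, the peptidase that degrades incretin hormones. Obesity was modelled by diet alone, and the labels give no age or body weight.

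Long noncoding RNAs are transcripts that are processed much like mRNA but encode no known protein. Some act in the nucleus on chromatin or splicing, and others bind proteins, mRNAs or microRNAs in the cytoplasm. As a class they are known for lower abundance and greater tissue specificity than mRNAs, and in the vessel wall several have been linked to smooth muscle state, endothelial function and inflammation.

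The array design includes 15 probes named NEGATIVE, and the highest of them lay between 25.1 and 48.6 intensity units per array. The scanning software marked 22.2% to 71.1% of the spots of these probes as well above background, so that mark alone does not separate a signal from nonspecific brightness. Both measures are therefore given for the members: the mark of the software (detected) and an intensity above the highest NEGATIVE probe of the same array. Per the file headers 7 arrays were scanned on 12 November 2020, while vehicle 3 and DIO+sitagliptin 3 were scanned on 20 November 2020.

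Most LNC probes were detected on every array. In vehicle aortas 65.4%, 81.9% and 66.6% of the 27812 probes were detected, in DIO aortas 86.0%, 70.8% and 77.8%, and in DIO+sitagliptin aortas 83.6%, 77.3% and 69.6%. The 3 groups overlapped. Far fewer LNC probes exceeded the highest NEGATIVE probe: 36.2%, 45.1% and 31.8% in vehicle mice, 48.5%, 48.8% and 45.6% in DIO mice, and 43.1%, 45.0% and 36.8% in DIO+sitagliptin mice. By this stricter measure all 3 DIO arrays, at 45.6% or more, lay above all vehicle arrays, at 45.1% or less. Their highest NEGATIVE probes were at 35.4, 25.1 and 31.7 units against 35.8, 40.7 and 41.1 in vehicle mice, and the part of that level in the order was not tested.

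LNC probes were detected more often than P probes and were brighter at the median on every array. P probes were detected at 45.1%, 67.2% and 50.4% in vehicle mice, 71.7%, 51.6% and 60.1% in DIO mice, and 67.1%, 60.0% and 56.1% in DIO+sitagliptin mice. The LNC share was higher by 16.7 ± 2.28 percentage points (SD, n = 9 arrays; range 13.5 to 20.4), in 9 of 9 arrays, with a two-sided exact sign-flip permutation p of 0.00391, the smallest that 9 arrays allow. Above the highest NEGATIVE probe the excess was 12.3 ± 3.34 points (6.22 to 16.2), again in 9 of 9 arrays and with an exact permutation p of 0.00391. The median intensity of LNC probes ran from 14.5 to 41.2 units and that of P probes from 6.08 to 24.1. On the log2(intensity + 1) scale the medians differed by 0.81 ± 0.14 (0.68 to 1.13), with LNC higher in 9 of 9 arrays (exact permutation p = 0.00391). Benjamini-Hochberg adjustment over the 3 exact permutation tests left p = 0.00391. The 9 arrays hold the same probes, so these tests speak of the arrays and not of other probe sets.

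The difference from P probes was smaller among probes that passed a filter. Where only probes kept by the detection filter entered (at least 0.5 of a probe's spots detected on at least 3 arrays), the median difference fell to 0.29 on the log2 scale. The filter kept 23503 LNC probes (84.5%) and 5489 P probes (69.4%). With the software's weaker mark of a signal above background, the excess of LNC in detection was 7.59 points.

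A second family of maker's identifiers, ASMM10AP with 22359 probes, lay close to the LNC probes. LNC minus AP was 0.85 ± 1.21 points in detection (SD, n = 9; range -1.80 to 2.07), with LNC higher on 7 of 9 arrays, and 0.01 ± 0.07 in median log2 intensity. Both differences were smaller than their spread over arrays. The 639 probes named mouselincRNA, also noncoding by name, were detected less often than LNC probes by 18.1 ± 3.24 points and were dimmer by 0.93 ± 0.31 at the median log2 intensity, on 9 of 9 arrays. No test was run for these families, which were added after the values were seen.

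LNC intensities were strongly skewed. From array to array the first quartile lay between 3.48 and 20.7 units, the third quartile between 66.1 and 97.2, and the 99th percentile between 4984 and 25393, against 3593 to 21371 for the 99th percentile of P probes. LNC probes supplied 45.2% to 48.7% of the summed intensity, close to their 45.7% of the probes. Among the 100 brightest probes of an array 32 to 47 were LNC probes and 4 to 14 were P probes.

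The brightest member by mean normalized level was ASMM10LNC1A112141165V4. It read 48389, 156139 and 39164 units in vehicle mice, 70271, 110254 and 78187 in DIO mice, and 48366, 152041 and 65707 in DIO+sitagliptin mice. It was the brightest of all probes on vehicle 1, DIO 3, DIO+sitagliptin 1 and DIO+sitagliptin 2. ASMM10LNC1A100116970V4 held that place on both arrays of 20 November, with 110789 units on vehicle 3 and 120004 on DIO+sitagliptin 3, and ASMM10LNC1A107169659V4 on DIO 1 with 70750 units. On vehicle 2 and DIO 2 an AP probe was brightest. The 10 brightest members had mean normalized log2 levels of 15.46 to 16.14 and an SD over the 9 arrays of 0.16 to 0.83. The smallest of these SDs, 0.16, belonged to ASMM10LNC1A100049872V4, with readings from 22509 units on DIO+sitagliptin 1 to 119964 on vehicle 2 before normalization.

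Detection ranged from all arrays to none. On all 9 arrays 14395 LNC probes (51.8%) were detected, on none 2469 (8.88%), and on 1 to 8 arrays 10948 (39.4%). Above the highest NEGATIVE probe the counts were 6487 (23.3%) on all 9 arrays, 11099 (39.9%) on none and 10226 (36.8%) in between. The matching shares of P probes were 16.7% on all 9 arrays and 55.7% on none. Of the 23503 LNC probes kept for testing, 6873 (29.2%) exceeded the highest NEGATIVE probe on no array, so that their group differences are not separated from background.

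Members above the NEGATIVE level on all arrays varied to very different degrees. Over the 6487 probes the SD of the normalized log2 level across the 9 arrays had a median of 0.67, with the 10th and 90th percentiles at 0.32 and 1.27. The steadiest was ASMM10LNC1A100058586V4, with an SD of 0.09. It read 127, 159 and 106 units in vehicle mice, 170, 103 and 102 in DIO mice, and 108, 122 and 153 in DIO+sitagliptin mice. ASMM10LNC1A110101897V4, ASMM10LNC1A100104151V4, ASMM10LNC1A102249439V4 and ASMM10LNC1A100016270V4 followed, with SDs up to 0.11.

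The 5 most variable members had SDs of 2.87 to 3.78 and spanned 7.36 to 10.04 log2 units, and none of them followed the groups. ASMM10LNC1A100125654V4 read 138, 7598 and 28395 units in vehicle mice, 108, 1424 and 51.3 in DIO mice, and 52.5, 697 and 70251 in DIO+sitagliptin mice. It was highest on the 2 arrays of 20 November, and among the others it was highest on the array numbered 2 in each group. ASMM10LNC1A100047802V4 and ASMM10LNC1A103127841V4 had the same order, with 63781 and 14331 units on vehicle 3 and 76812 and 15748 on DIO+sitagliptin 3. ASMM10LNC1A117061227V4 went the other way, with 92.9 units on vehicle 3 and 36.5 on DIO+sitagliptin 3 against at least 1197 on every other array. ASMM10LNC1A113433898V4 was highest on the arrays numbered 2, at 41099 in vehicle mice, 8072 in DIO and 70212 in DIO+sitagliptin, and read 238 on vehicle 3 and 220 on DIO+sitagliptin 3.

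The separation by scan date ran through the whole family. In 11942 of the 23503 kept LNC probes (50.8%) the normalized levels on both arrays of 20 November lay above all 7 others (4989 probes) or below them all (6953 probes). The same held for 49.7% of all kept probes, so the LNC share is near the background. The first principal component of the kept LNC probes carried 60.8% of their variance, with loadings of 0.58 on vehicle 3 and 0.63 on DIO+sitagliptin 3 and of -0.35 to -0.07 on the other arrays. No DIO array was scanned on that date, so date and group are partly confounded, and group counts among the 7 arrays of 12 November are given below.

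The identifiers fall into 2 blocks that differed in detection. This division was drawn after the values were seen and has no test. Numbers below 100130000 are densely used, with at least 200 LNC probes per 10000 numbers, and hold 8796 members (31.6%), of which 73.1% have a member at the next or previous number. The 19016 members above the border (68.4%) are sparse, with 2.32% in such runs. The low-numbered block was detected at 63.1% ± 6.73 (SD, n = 9 arrays; range 52.5% to 72.7%) and the high-numbered block at 81.1% ± 8.14 (71.4% to 92.2%). High minus low was 18.0 ± 2.92 points and positive on 9 of 9 arrays. The low-numbered block exceeded the P probes by 4.34 ± 2.22 points in detection, against 16.7 points for the whole family.

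Above the highest NEGATIVE probe the blocks differed by fewer points. Per array 36.2% ± 4.49 of low-numbered and 45.2% ± 6.76 of high-numbered members exceeded it (mean and SD over 9 arrays). On all 9 arrays 1873 low-numbered members (21.3%) and 4614 high-numbered members (24.3%) did so, a measure unlike the detected share per array. Within the low-numbered block, the 6427 members in runs were detected at 60.6% on average over arrays and the 2369 outside runs at 70.1%. Neighbouring numbers did not carry like levels: over 5756 pairs of consecutive numbers the Pearson correlation of mean log2 level was 0.04, a description across probes that share the same arrays. The longest run held 22 members, of which 6 exceeded the NEGATIVE level on all 9 arrays and 13 on none, with mean log2 levels from 1.77 to 14.11. Its brightest was ASMM10LNC1A100058624V4, which read 4757, 58890 and 33344 units in vehicle mice, 7352, 27146 and 7210 in DIO mice, and 6491, 60668 and 45099 in DIO+sitagliptin mice.

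The first group comparison asks how the obese aorta differs from the control aorta. No LNC probe passed in DIO against vehicle: limma called 0 of 23503 at an adjusted p under 0.05, beside 0% of all 49360 probes tested, with 0.925 as the lowest adjusted p. Before adjustment 141 LNC probes (0.600%) had p under 0.05, 87 of them higher and 54 lower in DIO. Over all probes the share was 0.717%, with 215 higher and 139 lower. With no difference anywhere, p-values of a well-fitting model would put a fraction of 0.05 under that threshold. The shares here and in the main fits of the comparisons below are lower, and why was not tested. The balance depended on the settings: with median scaling it was 94 higher and 37 lower, among probes detected on all 9 arrays 13 and 47, and in a fit of only the 6 arrays compared 176 and 201. Over all probes the same settings gave 218 and 99, 33 and 88, and 415 and 466. The median difference over the LNC probes was 0.06 on the log2 scale, against 0.05 over all probes. In bulk tissue, fewer cells of a type and less RNA per cell cannot be told apart.

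Values that did not pass are given for the 5 members of smallest p in each direction whose average level exceeded that of the highest NEGATIVE probe. ASMM10LNC1A107266207V4 read 2922, 10723 and 1376 units in vehicle mice, 7490, 7293 and 5101 in DIO mice, and 3151, 10071 and 12115 in DIO+sitagliptin mice. After normalization its DIO arrays (13.04 to 13.11) lay above its vehicle arrays (10.40 to 12.56), a difference of 1.46 ± 0.58. The 95% interval ran from 0.16 to 2.75, with adjusted p = 0.925 by limma. For fitted differences ± is the SE of the joint limma fit, whose spread is estimated over all 9 arrays. The lowest value was that of vehicle 3, and the DIO+sitagliptin arrays lay at 12.53 to 12.66. ASMM10LNC1A100111737V4 differed by 1.59 ± 0.66, ASMM10LNC1A108628854V4 by 1.23 ± 0.54, ASMM10LNC1A100031684V4 by 1.24 ± 0.54 and ASMM10LNC1A118304421V4 by 1.10 ± 0.49. With median scaling in place of quantile normalization the differences were smaller, at 0.54 for ASMM10LNC1A107266207V4, 0.74 for ASMM10LNC1A100111737V4, 0.67 for ASMM10LNC1A108628854V4 and 0.50 for ASMM10LNC1A118304421V4. ASMM10LNC1A100031684V4 was not above the NEGATIVE level on vehicle 1 and vehicle 3. In all 5 the lowest of the 9 normalized levels was that of vehicle 3. Without vehicle 3 the difference was 0.84 for ASMM10LNC1A107266207V4 and 0.89 for ASMM10LNC1A100111737V4, and without DIO 3 it was 0.62 for ASMM10LNC1A100031684V4.

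On the lower side ASMM10LNC1A105514888V4 had a fitted difference of -2.89 ± 1.26 (95% interval -5.70 to -0.08). It read 712, 451 and 1676 units in vehicle mice, 14.7, 279 and 227 in DIO mice, and 349, 206 and 2011 in DIO+sitagliptin mice. The groups did not overlap after normalization, but the lowest vehicle level (8.43) and the highest DIO level (8.37) were nearly equal. The reading of 14.7 units on DIO 1 lies below the highest NEGATIVE probe of that array (35.4), and without DIO 1 the difference was -1.27. ASMM10LNC1A108706582V4 read 91.7, 52.1 and 293 units in vehicle and 53.8, 35.7 and 23.4 in DIO, a difference of -1.69 ± 0.67 with overlapping groups. The remaining members were ASMM10LNC1A103686748V4 at -1.51 ± 0.64, ASMM10LNC1A100116827V4 at -1.32 ± 0.53 and ASMM10LNC1A106392443V4 at -1.01 ± 0.41. Of these, ASMM10LNC1A103686748V4 was not above the NEGATIVE level on DIO 2 and DIO 3, and neither ASMM10LNC1A108706582V4 nor ASMM10LNC1A100116827V4 was above it on DIO 3. Vehicle 3 held the highest level of the 9 arrays in 4 of these 5 members. Without it the differences were -0.87 for ASMM10LNC1A108706582V4, -0.75 for ASMM10LNC1A103686748V4 and -0.57 for ASMM10LNC1A106392443V4.

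The share of members whose groups did not overlap was near that of all probes. In 1766 kept LNC probes (7.51%) all DIO arrays lay on 1 side of all vehicle arrays, 971 higher and 795 lower. The share was 7.41% of all kept probes, with 2051 higher and 1609 lower. By the NEGATIVE level, 257 LNC probes (0.924%) exceeded it on all 3 DIO arrays and no vehicle array and 0 did the reverse. Over all probes the counts were 472 (0.776%) and 0, so the direction was not particular to LNC probes. An alternative chosen after seeing the data took the highest NEGATIVE probe of all 9 arrays (48.6 units) as 1 common level. With it 1 probe was above only in DIO and 4 only in vehicle (0.0180% in all, against 0.0181% of all probes). An example of the 257 was ASMM10LNC1A106416560V4, with 14.3, 34.6 and 1.1 units in vehicle mice, 42.1, 31.9 and 45.2 in DIO mice, and 60.8, 41.4 and 1.9 in DIO+sitagliptin mice. All its readings lie near the NEGATIVE level or under it. The count at an unadjusted p moved with most arrays: of 23503 LNC probes it was 268 without vehicle 1, 1042 without vehicle 2, 35 without vehicle 3, 225 without DIO 1, 73 without DIO 2, 39 without DIO 3 and 564 without DIO+sitagliptin 3. In the same order the counts over all 49360 probes were 583, 2342, 89, 561, 179, 103 and 1282. Among the 7 arrays of 12 November 255 LNC probes had an unadjusted p under 0.05, against 568 of all probes, and 0 were called.

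The second comparison asks what sitagliptin changes in the aorta of diet-fed mice. DIO+sitagliptin against DIO gave 0 LNC calls by limma, beside 0% of all probes, with a smallest adjusted p of 1.000. Before adjustment 47 of the 23503 kept members (0.200%) lay under 0.05, with 32 higher and 15 lower under the drug. Over all probes the share was 0.231%, with 73 higher and 41 lower. The median LNC difference was -0.04 on the log2 scale, against -0.05 over all probes.

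Among values that did not pass, ASMM10LNC1A111706518V4 read 42.2, 39.7 and 41.1 units in DIO and 102, 59.6 and 98.9 in DIO+sitagliptin, beside 19.3, 55.7 and 38.1 in vehicle. The DIO+sitagliptin arrays lay above all other arrays after normalization, with a difference from DIO of 1.04 ± 0.41 (SE, with a 95% interval from 0.14 to 1.95 and adjusted p = 1.000 by limma). On 7 of 9 arrays it was above the NEGATIVE level. ASMM10LNC1A100090243V4 differed by 1.22 ± 0.52, ASMM10LNC1A106157312V4 by 0.85 ± 0.38, ASMM10LNC1A101670503V4 by 0.79 ± 0.37 and ASMM10LNC1A103265644V4 by 0.72 ± 0.33. None of the 5 averaged above 5.66 on the log2 scale, so all were dim. Without DIO+sitagliptin 3 the difference was 0.50 for ASMM10LNC1A100090243V4 and 0.49 for both ASMM10LNC1A106157312V4 and ASMM10LNC1A101670503V4.

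ASMM10LNC1A100687450V4 was the member of smallest p on the lower side. It read 173, 94.9 and 81.9 units in DIO and 76.7, 44.8 and 33.8 in DIO+sitagliptin, beside 121, 66.8 and 131 in vehicle mice, a difference of -1.18 ± 0.46 on the normalized log2 scale. The 2 high-fat groups did not overlap after normalization, while the vehicle arrays (5.77 to 7.19) overlapped both. ASMM10LNC1A100085065V4 differed by -1.43 ± 0.58, ASMM10LNC1A100010665V4 by -1.10 ± 0.43, ASMM10LNC1A113596391V4 by -0.96 ± 0.38 and ASMM10LNC1A118204962V4 by -0.95 ± 0.40. None of these last 4 was above the NEGATIVE level on DIO+sitagliptin 3, and on DIO+sitagliptin 1 only ASMM10LNC1A118204962V4 was, so the differences rest partly on values not separated from background. Across the family 819 kept LNC probes (3.48%), 504 higher and 315 lower, had groups that did not overlap. The share was 3.32% of all kept probes, with 948 higher and 693 lower. Above the NEGATIVE level on all arrays of 1 group and none of the other were 59 LNC probes (0.212%), 58 of them in DIO. Over all probes there were 117 (0.192%), 116 of them in DIO. With the common level there were 22, all in DIO+sitagliptin mice (0.0791%, against 0.0575% of all probes). Without the arrays of 20 November there were 166, with 46 in DIO+sitagliptin and 120 in DIO (0.597%, against 0.554% of all probes). The count at an unadjusted p, of 23503 LNC probes, was 29 without vehicle 1, 73 without DIO 3, 373, 196 and 140 when DIO+sitagliptin 1, 2 or 3 was left out, and 483 among the arrays of 12 November, with 0 calls each time. In the same order the counts over all 49360 probes were 78, 168, 789, 438, 364 and 1121. Of the 483 members on the arrays of 12 November, 219 were higher and 264 lower, against 444 and 677 over all probes.

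DIO+sitagliptin against vehicle again had 0 LNC calls by limma, beside 0% of all probes, with a smallest adjusted p of 1.000. Before adjustment 313 LNC probes (1.33%) had p under 0.05, of which 189 were higher and 124 lower. Over all probes the share was 1.44%, with 394 higher and 319 lower. The LNC split was 195 and 184 with median scaling, 81 and 113 among probes detected on all 9 arrays, and 62 and 58 in a fit of only the 6 arrays compared, so that no balance held over settings. Over all probes the same settings gave 391 and 451, 127 and 253, and 143 and 163. The median LNC difference was 0.02 on the log2 scale, against 0.00414 over all probes. This comparison shares its arrays with the others and adds no independent evidence to them.

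ASMM10LNC1A101163851V4 read 84.6, 252 and 81.8 units in vehicle mice, 182, 172 and 291 in DIO mice, and 343, 322 and 394 in DIO+sitagliptin mice. The difference of DIO+sitagliptin from vehicle was 1.62 ± 0.54 (SE, with a 95% interval from 0.42 to 2.81 and adjusted p = 1.000 by limma), the groups did not overlap, and the member exceeded the NEGATIVE level on 9 of 9 arrays. ASMM10LNC1A118304421V4 read 386, 624 and 225 units in vehicle mice, 904, 542 and 664 in DIO mice, and 648, 742 and 2311 in DIO+sitagliptin, a difference from vehicle of 1.42 ± 0.49. It is also among the members higher in DIO. ASMM10LNC1A101670503V4 and ASMM10LNC1A111706518V4, both named above for the drug comparison, differed from vehicle by 1.26 ± 0.37 and 1.16 ± 0.41, and ASMM10LNC1A100121806V4 by 1.29 ± 0.43.

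On the lower side ASMM10LNC1A109261305V4 read 352, 193 and 669 units in vehicle mice, 443, 171 and 53.6 in DIO mice, and 103, 38.0 and 105 in DIO+sitagliptin mice. Its difference was -2.23 ± 0.79 (95% interval -4.00 to -0.46), with every vehicle array above every DIO+sitagliptin array and the DIO arrays spread over both. ASMM10LNC1A103243684V4 differed by -1.76 ± 0.64, ASMM10LNC1A107924259V4 by -1.65 ± 0.60, ASMM10LNC1A108161897V4 by -1.32 ± 0.48 and ASMM10LNC1A100782710V4 by -1.11 ± 0.36. ASMM10LNC1A103243684V4, ASMM10LNC1A107924259V4 and ASMM10LNC1A100782710V4 were not above the NEGATIVE level on any DIO+sitagliptin array, so the size of their differences is not separated from background. Without vehicle 3 the difference of ASMM10LNC1A107924259V4 was -1.10. Without both arrays of 20 November it was -0.95, and ASMM10LNC1A101670503V4 differed by 0.78, ASMM10LNC1A100121806V4 by 0.75 and ASMM10LNC1A118304421V4 by 0.89. Groups did not overlap in 936 kept LNC probes (3.98%), 568 higher and 368 lower. The share was 4.04% of all kept probes, with 1153 higher and 843 lower. By the NEGATIVE level 13 LNC probes were above it only in DIO+sitagliptin and 6 only in vehicle (0.0683% in all). Over all probes the counts were 26 and 29 (0.0904% in all). The common level gave 3 and 7 (0.0360% in all, against 0.0427% of all probes). Without the arrays of 20 November, which leaves 2 arrays in each of these groups, the counts were 485 and 163 (2.33% in all), against 2.09% of all probes. The count at an unadjusted p, of 23503 LNC probes, was 155 without vehicle 1, 1101 without vehicle 2, 182 without vehicle 3, 183 without DIO 2, and 513, 185 and 2373 when DIO+sitagliptin 1, 2 or 3 was left out. In the same order the counts over all 49360 probes were 329, 2511, 398, 447, 1158, 434 and 5150. Among the 7 arrays of 12 November the LNC count was 1352, against 2932 of all probes (smallest adjusted p 0.764 by limma). A fit of all 9 arrays with a term for scan date gave 1618, against 3393 of all probes (0.723). Neither fit called a member. With the replicate number as a block within the 6 arrays the count was 1799, against 3845 of all 49360 probes, again with 0 calls. The block of number 3 holds both arrays of 20 November, so it is not separated from scan date.

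Each group had 3 arrays, and precision was limited. In the main fit the median 95% interval of a kept LNC probe reached 1.13 log2 units to either side of its difference. Without vehicle 3 and DIO+sitagliptin 3 it reached 0.76 in DIO against vehicle and in DIO+sitagliptin against DIO. In DIO+sitagliptin against vehicle it then reached 0.83. With a term for scan date it reached 0.82, 0.82 and 0.78 in the same order. How far the number of arrays and the scan date each set this width was not tested. The spread within groups, which includes that between scan dates, had a median SD of 0.63 for kept LNC probes and 0.71 for kept P probes.

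Over the whole family, the groups overlapped in the detected share, while in the share above the NEGATIVE level all DIO arrays lay above all vehicle arrays. That order was not particular to LNC probes. AP probes showed it too, at 36.8%, 44.0% and 32.5% in vehicle mice and 48.9%, 48.5% and 45.0% in DIO mice. In P probes and in mouselincRNA probes the 2 groups overlapped. The detected share averaged 71.3% ± 9.20 in vehicle mice, 78.2% ± 7.59 in DIO and 76.8% ± 7.01 in DIO+sitagliptin (SD, n = 3 per group). In detection DIO minus vehicle was 6.91 points (two-sided exact permutation p = 0.3), DIO+sitagliptin minus DIO -1.42 points (p = 0.7) and DIO+sitagliptin minus vehicle 5.49 points (p = 0.5). The share above the highest NEGATIVE probe averaged 37.7% ± 6.74 in vehicle, 47.6% ± 1.78 in DIO and 41.6% ± 4.29 in DIO+sitagliptin. Its excess in LNC over P probes was 11.0, 12.0 and 8.25 points on the vehicle arrays and 14.4, 14.8 and 14.9 on the DIO arrays, so these groups did not overlap, while the DIO+sitagliptin arrays, at 16.2, 13.2 and 6.22, spanned both. The excess of AP over P probes also did not overlap between vehicle and DIO mice, so this separation was not particular to LNC probes either. The P shares behind both were 25.2%, 33.1% and 23.6% in vehicle mice and 34.1%, 34.0% and 30.6% in DIO mice. No test was run on these shares between groups, and the lower NEGATIVE levels of the DIO arrays are given above. The difference of medians, LNC minus P, averaged 0.92 ± 0.22 log2 units in vehicle mice, 0.77 ± 0.03 in DIO and 0.73 ± 0.03 in DIO+sitagliptin mice. The vehicle arrays read 0.96, 0.68 and 1.13, and the other 6 arrays lay between 0.70 and 0.80. The exact permutation p was 0.4 for DIO against vehicle, 0.2 for DIO+sitagliptin against DIO and 0.4 for DIO+sitagliptin against vehicle. The smallest p that 3 arrays against 3 allow is 0.1, and over the 6 tests the adjusted p was 0.6 to 0.7.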

How the data were processed

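The 9 one-colour arrays, 1 per mouse, were grouped by their labels. Per the file headers the authors extracted spot values with Agilent Feature Extraction 11.0.1.1. The deposited intensity used here (processed signal) is background-subtracted, with no normalization between arrays recorded, and the deposited flags, an other unit, mark spots well above background. The type GEO gives is sequencing, but the values are those of arrays.

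Intensities were put on the log2 scale after adding 1, averaged over a probe's spots and quantile normalized over 60823 probes outside the control features. This scale understates changes of dim probes. Probes with at least 0.5 of their spots well above background on at least 3 arrays were tested (49360). Group differences came from limma 3.58.1 (R 4.3.3), in a joint fit of all 9 arrays with an intensity trend and no covariate, and p-values were adjusted by Benjamini-Hochberg over all probes tested. The procedure was checked on data of known answers. For limma these were simulated arrays with independent noise and no scan-date pattern. That check required mean estimates near the planted differences and set nothing for the number called, so it does not bear on the 0 calls. Values per array were compared with exact permutation tests (Python 3.11.15, numpy 2.4.6, pandas 2.3.3, scipy 1.17.1).

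The members and lists were chosen with earlier results of these data known. Named members were the called ones (at most 10 per direction), or the 5 of smallest p in a direction with fewer than 5 calls, among kept probes averaging above the highest NEGATIVE probe, with the 10 brightest and the 5 of largest and of smallest SD.

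Alternatives covered normalization, pseudocount (16), filter, arrays in the fit, each array left out, scan date, variance trend, flag and NEGATIVE level. The replicate number served as a block, alone and, added later, within the 6 arrays compared. As a check of pairing, each array's deviations from its group mean over kept LNC probes were correlated between arrays of the same number. For vehicle with DIO+sitagliptin r was 0.68, 0.66 and 0.77, above the limit of 0.1 set for pairing. For vehicle with DIO r was 0.32, 0.12 and -0.34, and for DIO with DIO+sitagliptin 0.16, -0.05 and -0.31. Vehicle 3 and DIO+sitagliptin 3 were both scanned late. Deviations from a group mean cancel within the group, so a shift of these arrays moves numbers 1 and 2 of both groups the opposite way. The r of numbers 1 and 2 is therefore not separated from scan date either, and the check cannot decide on pairing of vehicle with DIO+sitagliptin. The headers name the mm9 build, and no coordinates or sequences of members were used here. Mice are separate per the series' design text.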

Additional observations from a re-analysis of the deposited data

How the results depend on the processing

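The 0 calls in each of the 3 comparisons held under all 20 alternatives, leaving out each array included (0 to 0). The differences of the named members kept their direction in all 600 alternative values. These members were chosen by smallest p in each direction on the same arrays, so a kept direction is no independent evidence for them. LNC minus P stayed positive and past the threshold in detection (16.2 to 17.1 points leaving out 1 array, 7.59 to 17.2 over 12 alternatives), above the NEGATIVE level (11.8 to 13.1 leaving out 1 array, 11.8 to 13.8 over 12) and in median log2 intensity (0.77 to 0.82 leaving out 1 array, 0.29 to 0.82 over 13), at exact permutation p of 0.00391 to 0.0156. Between groups, the detected share of LNC probes in DIO+sitagliptin minus DIO turned to 2.20 points without DIO+sitagliptin 3, also 2.20 without both arrays of 20 November, and 2.46 without DIO 1 (range leaving out 1 array -5.12 to 2.46). It was 3.02 to 12.2 points for DIO minus vehicle and 2.11 to 10.8 for DIO+sitagliptin minus vehicle. The LNC minus P median in DIO minus vehicle turned to 0.052 after quantile normalization, and was, leaving out 1 array, -0.27 to -0.05, with -0.05 to -0.02 for DIO+sitagliptin minus DIO and -0.31 to -0.09 for DIO+sitagliptin minus vehicle. The cause was not tested. With the replicate number as a block, 343 of 23503 LNC probes had p under 0.05 before adjustment in DIO against vehicle, 117 in DIO+sitagliptin against DIO and 454 in DIO+sitagliptin against vehicle. Over all 49360 probes the counts were 762, 276 and 1051. The block within the 6 arrays compared gave 227, 29 and 1799 LNC probes, against 489, 65 and 3845 of all probes, with 0 calls. The block changed no call. Over all alternatives the LNC counts ran from 17 to 1042, 9 to 483 and 120 to 2373, the lowest of the first 2 with no normalization. Without normalization the median difference of all probes was 0.26 for DIO against vehicle and 0.19 for DIO+sitagliptin against vehicle, and with median scaling -0.10 and -0.09.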
